A study of Mus musculus with 24 samples.

Results

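The comparison of β-estradiol given with tamoxifen (Tamo_E2, 3 libraries) and tamoxifen given alone (Tamo, 3 libraries) covered 6 of the 24 RNA-seq libraries of a study of P815, a transplantable mouse mastocytoma cell line. The members were the libraries that carry these group names, joined by replicate number. Both groups were P815 cells in RPMI-1640 medium with 10% fetal bovine serum. Tamo_E2 cells received tamoxifen and β-estradiol for 24 h, and Tamo cells received tamoxifen for 24 h. Other arms of the study served to place the result: NC_E2 and NC (a negative control vector with and without β-estradiol), SH_E2 and SH (a short hairpin RNA vector against Esr1), and ICI_E2 and ICI (the antiestrogen ICI-182780). The labels state no dose and no vehicle-only group. They name no vector for the tamoxifen cells, so these may differ from NC and SH cells in more than the drug. It is not stated whether libraries of a group came from separate cultures, so the spread behind the p-values may be technical.

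Estradiol acts mainly through the nuclear estrogen receptors, which bind DNA at estrogen response elements and recruit coactivators, and through the membrane receptor GPER1. Tamoxifen competes with estradiol for the nuclear receptors and is an antagonist or a partial agonist depending on the cell type. It also activates GPER1 and binds the microsomal antiestrogen binding site, a complex of late sterol synthesis enzymes. Mast cells and their tumours depend on the receptor KIT, store proteases in granules, and have been studied as targets of sex steroids. The comparison asks what estradiol does to the transcriptome while tamoxifen is present.

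Library sizes and the mitochondrial share overlapped between the groups. Totals were 47.8, 51.2 and 58.5 M estimated counts in Tamo_E2 libraries, against 45.5, 54.3 and 51.4 M in Tamo libraries. Mitochondrially encoded genes took 5.0%, 5.71% and 5.45% of the counts in Tamo_E2, against 5.38%, 4.79% and 5.12% in Tamo. The groups overlapped in this share and did not differ beyond their spread (difference 0.288 percentage points, two-sided exact permutation p = 0.4, where 3 libraries against 3 cannot go below 0.1). The mast cell label fitted most of its markers. Of 15 mast cell markers, 11 averaged 1 FPKM (fragments per kilobase of transcript, scaled by library size) or more, and the markers summed to 835 to 1090 FPKM in Tamo_E2, against 830 to 1083 FPKM in Tamo. Kit stood at 133, 133 and 117 FPKM in Tamo_E2 and at 133, 175 and 98.3 FPKM in Tamo. Fcer1a and Ms4a2, subunits of the high-affinity IgE receptor, averaged 0.392 and 0.0569 FPKM in Tamo_E2, against 0.430 and 0.0629 FPKM in Tamo, and 4 of 15 markers were at such low levels. Cd68 was the only 1 of 6 macrophage markers at 1 FPKM or more. Markers of T cells, fibroblasts, erythroid and epithelial cells all averaged under 1 FPKM, with the T cell genes Cd3e, Cd8a and Trac and the B cell gene Ms4a1 at 0 counts in all 6 libraries. The 4 fibroblast markers summed to 0.912 to 1.48 FPKM in Tamo_E2 and to 0.350 to 0.674 FPKM in Tamo. The 4 markers of megakaryocytes summed to 19.1 to 20.4 FPKM in Tamo_E2 and to 21.7 to 24.7 FPKM in Tamo, led by Itga2b and Pf4. Neither of these sums overlapped between the groups, while the sums of the other cell types did. Among single genes tested, 6.33% did not overlap. The part of the fibroblast and megakaryocyte markers in the results was not tested.

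No gene changed between Tamo_E2 and Tamo in the main test, edgeR quasi-likelihood with Benjamini-Hochberg adjustment over 12183 genes (0%). An unadjusted p under 0.05 was reached by 434 genes (3.56%), 237 with higher levels in Tamo_E2 (1.95%) and 197 with lower levels (1.62%). DESeq2 called 6 genes, Esco1, Nlrp3, Caap1, Prr14 and the predicted genes Gm9824 and Gm45062, and limma 0. A fit that adds a term for the replicate number called 3 genes (0.0246%): Esco1 and Nlrp3 rose and Prr14 fell. At an unadjusted p under 0.05 that fit held 1073 genes (8.81%). The 95% interval of the log2 fold change lay within a 2-fold change either way for 79.8% of the genes and within a 1.5-fold change for 50.2%, so smaller changes could not be resolved for many genes. The FPKM of the 2 groups did not overlap for 411 genes with higher levels in Tamo_E2 (3.37%) and 360 with lower levels (2.95%), together 6.33%.

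Nlrp3 had the largest fold change of the genes that rose. It encodes the sensor of the NLRP3 inflammasome, which recruits the adaptor PYCARD and activates caspase-1. Nlrp3 (ENSMUSG00000032691, GRCm38 chromosome 11, 59541568 to 59566956) stood at 5.91, 5.08 and 3.86 FPKM in Tamo_E2, against 0.518, 1.44 and 0.219 FPKM in Tamo. Every Tamo_E2 library was above every Tamo library, and the highest Tamo value was in replicate 2. The log2 fold change was 2.77 ± 0.61 (SE, edgeR adjusted p = 0.908), and 2.92 ± 0.46 with the replicate number in the fit (edgeR adjusted p = 0.0371). The same-numbered pairs gave 3.48, 1.85 and 4.05 on the log2 scale. Other inflammasome genes had no call: without the replicate number Nlrp3 was the only 1 of 12 tested members at an unadjusted p under 0.05, against 3.56% of all genes, and the median log2 fold change of the 12 was -0.03. With the replicate number 2 of the 12, Nlrp3 among them, had higher levels at that threshold and 0 lower, against 4.91% and 3.9% of all genes. Pycard and Casp1, its partners in the complex, were at or near 0, with at most 0.0210 FPKM in any Tamo_E2 library and at most 0.0484 FPKM in any Tamo library. Aim2, a sensor of cytosolic DNA, stood at 1.62, 1.52 and 1.19 FPKM in Tamo_E2 and at 1.19, 1.27 and 0.857 FPKM in Tamo (0.39 ± 0.30, edgeR adjusted p = 0.9998), with overlapping groups. In these bulk samples, fewer cells expressing a gene and less RNA per cell cannot be told apart.

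Nlrp3, Galnt10, Rmnd5b and Epb41l4b had higher levels with estradiol in the other arms too, and were listed for that reason. Galnt10, which adds the initial sugar of mucin-type O-glycans, stood at 10.0, 8.88 and 9.16 FPKM in Tamo_E2, against 5.32, 7.71 and 6.91 FPKM in Tamo. The groups did not overlap, and the log2 fold change was 0.49 ± 0.14 (edgeR adjusted p = 0.9998, and 0.302 with the replicate number in the fit). In the other arms Galnt10 averaged 9.05 FPKM in NC_E2 against 5.97 in NC, 11.97 in SH_E2 against 9.23 in SH, and 8.47 in ICI_E2 against 5.35 in ICI. Rmnd5b, a subunit of the CTLH ubiquitin ligase, stood at 51.5, 37.1 and 45.2 FPKM in Tamo_E2 and at 34.2, 30.3 and 38.4 FPKM in Tamo, where Tamo_E2 replicate 2 fell within the range of Tamo (0.37 ± 0.15, edgeR adjusted p = 0.9998). Epb41l4b, of the band 4.1 family of membrane skeleton proteins, stood at 4.64, 4.05 and 3.74 FPKM in Tamo_E2, above all Tamo libraries at 3.13, 3.55 and 3.15 FPKM (0.34 ± 0.11, edgeR adjusted p = 0.9998). Por, which passes electrons to microsomal cytochromes P450, averaged 96.5 ± 4.17 FPKM in Tamo_E2 and 89.9 ± 3.97 FPKM in Tamo (SD, n = 3 each), with overlapping groups (0.10 ± 0.08, edgeR adjusted p = 0.9998). The difference between the estradiol effect under tamoxifen and the mean effect in NC, SH and ICI was 0.07 ± 0.67 for Nlrp3, -0.06 ± 0.17 for Galnt10, -0.06 ± 0.17 for Rmnd5b, 0.04 ± 0.13 for Epb41l4b and -0.16 ± 0.09 for Por (log2, SE, edgeR adjusted p = 0.999 for each). These SEs leave room for a difference of more than 2-fold in Nlrp3.

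Nlrp3, Galnt10, Rmnd5b, Epb41l4b and Por had higher mean levels with estradiol in every arm. The window of Epb41l4b lay wholly within an exon of that gene and is not printed, and none was sought for Por. Sequences before the starts of Nlrp3, Galnt10 and Rmnd5b are shown. They are RefSeq windows of 250 bases that end at a transcript start (GRCm38.p6), written 5′ to 3′ on the strand of the gene. Capitals mark GGTCA on either strand, the core of the estrogen response element.
Nlrp3, upstream start, chr11:59541319-59541568, plus strand: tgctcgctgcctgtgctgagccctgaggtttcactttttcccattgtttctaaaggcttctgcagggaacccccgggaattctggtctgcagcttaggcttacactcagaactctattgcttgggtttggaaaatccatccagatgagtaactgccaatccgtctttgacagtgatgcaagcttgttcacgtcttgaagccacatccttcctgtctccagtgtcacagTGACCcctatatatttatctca
Nlrp3, downstream start, chr11:59542436-59542685, plus strand: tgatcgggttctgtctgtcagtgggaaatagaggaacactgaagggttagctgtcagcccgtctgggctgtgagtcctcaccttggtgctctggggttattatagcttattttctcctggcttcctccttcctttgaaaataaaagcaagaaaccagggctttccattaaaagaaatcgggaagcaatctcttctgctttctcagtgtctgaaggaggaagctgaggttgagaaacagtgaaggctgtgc
Galnt10, chr11:57645192-57645441, plus strand: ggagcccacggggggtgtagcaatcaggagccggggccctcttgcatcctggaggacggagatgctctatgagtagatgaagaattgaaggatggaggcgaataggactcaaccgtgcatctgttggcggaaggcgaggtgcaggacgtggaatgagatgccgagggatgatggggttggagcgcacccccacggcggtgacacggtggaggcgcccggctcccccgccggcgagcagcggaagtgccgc
Rmnd5b, chr11:51635897-51636146, minus strand: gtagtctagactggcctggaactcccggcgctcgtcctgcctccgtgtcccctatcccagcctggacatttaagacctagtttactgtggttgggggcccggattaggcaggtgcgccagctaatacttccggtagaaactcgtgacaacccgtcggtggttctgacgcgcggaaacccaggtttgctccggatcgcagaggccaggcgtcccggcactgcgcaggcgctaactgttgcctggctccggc
The upstream Nlrp3 window held the core motif, read on the opposite strand, with its first base 22 bases before the start. The core was in 35.2% of all 32851 such windows in the table, so a match of this kind is common. The full palindromic element, which is the core, 3 further bases and the core's reverse complement, was in 0.0639% of windows and AGGTCA, which contains the core, in 14.0%, both searched on both strands. Of the 15 leading genes with higher levels in Tamo_E2 described next, 14 had a window, and the palindrome was in 0 of them, AGGTCA in that of Orc4 and the core in those of Fbxo11, Nlrp3, Orc4 and Tmed5. Of the 15 leading genes with lower levels, 12 had a window, with the palindrome in 0 and both shorter motifs in that of Ndufs8. The AP-1 motif TGANTCA, through which estrogen receptors can act without their own element, was in 0 of the 14 and 0 of the 12, against 6.75% of all windows. Leading genes were counted by gene, with a match in any window, and the shares by window, so these are unlike measures. Sets this small cannot show a lack of a motif at such a share.

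**Figure D1:**
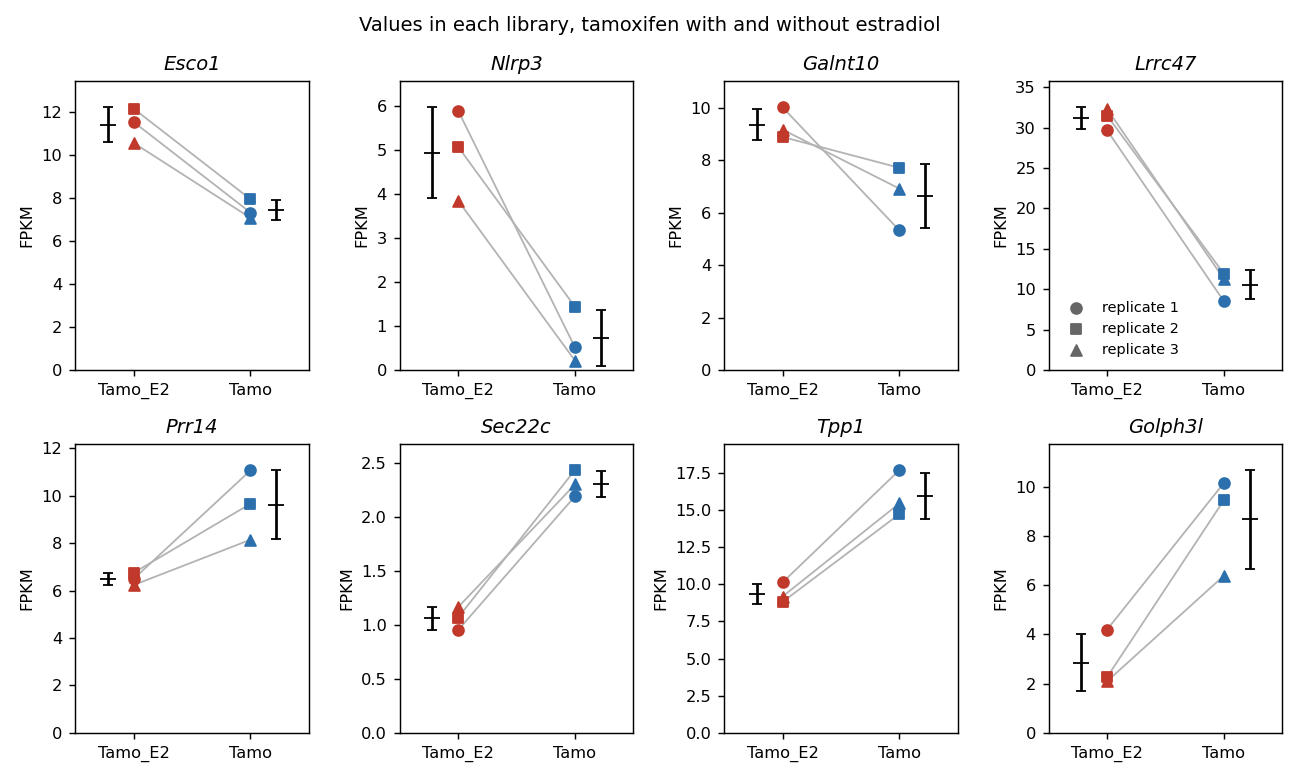
FPKM (y axis, from 0) of 8 genes in the 3 Tamo_E2 libraries (red) and the 3 Tamo libraries (blue), with lines joining libraries of the same replicate number and black bars giving the mean ± SD. The groups do not overlap for any of the 8 genes, against 6.33% of all genes, which the choice by p or fold change brings with it. Every pair therefore moves the same way.

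Esco1 had the smallest p of all genes. It encodes an acetyltransferase that acts on the cohesin subunit SMC3 and stabilises cohesin on chromatin. Esco1 (ENSMUSG00000024293, GRCm38 chromosome 18, 10566507 to 10610352) stood at 11.5, 12.2 and 10.6 FPKM in Tamo_E2, against 7.32, 7.94 and 7.07 FPKM in Tamo. The groups were far apart beside their spread, with means of 11.4 ± 0.799 FPKM in Tamo_E2 and 7.45 ± 0.447 FPKM in Tamo (SD, n = 3 each). The log2 fold change was 0.62 ± 0.10 (edgeR adjusted p = 0.0763), and 0.62 ± 0.09 with the replicate number in the fit (edgeR adjusted p = 0.0251). The 18 libraries outside the tamoxifen arm held 8.68 to 12.2 FPKM of Esco1. Tamo_E2 therefore lay inside the range of the other groups, and the 3 Tamo libraries lay below all of them. Of 18 cohesin genes, Esco1 included, 14 had a positive log2 fold change, against 47.3% of all genes, with a median of 0.12 against -0.01. Without the replicate number Esco1 was the only 1 of them at an unadjusted p under 0.05, against 3.56% of all genes. With the replicate number 3 of the 18 had higher levels at that threshold and 0 lower, against 4.91% and 3.9% of all genes. The median was 0.02 without Tamo replicate 1, 0.06 without Tamo_E2 replicate 3 and 0.22 without Tamo replicate 2. Smc3, shown as the substrate of ESCO1, stood at 35.8, 46.5 and 46.8 FPKM in Tamo_E2 and at 33.9, 41.2 and 38.6 FPKM in Tamo, with overlapping groups (0.18 ± 0.20, edgeR adjusted p = 0.9998). Stag2, another cohesin subunit, stood at 14.6, 18.6 and 16.3 FPKM in Tamo_E2 and at 13.5, 16.3 and 12.6 FPKM in Tamo (0.23 ± 0.14, edgeR adjusted p = 0.9998).

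Prr14 was the gene that fell. Its protein ties heterochromatin to the nuclear lamina. Prr14 (ENSMUSG00000030822, GRCm38 chromosome 7, 127459611 to 127476759) stood at 6.49, 6.75 and 6.23 FPKM in Tamo_E2, against 11.1, 9.66 and 8.15 FPKM in Tamo. All Tamo_E2 libraries were below all Tamo libraries, and the Tamo libraries were the more spread. The log2 fold change was -0.57 ± 0.12 (edgeR adjusted p = 0.908), and -0.56 ± 0.09 with the replicate number in the fit (edgeR adjusted p = 0.0371). In the other 6 groups the means ran from 7.02 to 8.20 FPKM, between those of Tamo_E2 (6.49) and Tamo (9.63). The 3 calls depended on the fit. DESeq2 called all 3 without the replicate number (adjusted p = 1.13e-05 for Esco1, 0.00445 for Nlrp3 and 0.00982 for Prr14). With the replicate number but without Tamo replicate 2, the library of the tamoxifen arm farthest from its group mates, Prr14 was lost (edgeR adjusted p = 0.0738). With only the 6 libraries in that fit all 3 were lost (edgeR adjusted p = 0.965), at log2 fold changes of 0.62 for Esco1, 3.12 for Nlrp3 and -0.56 for Prr14. So few libraries leave little to estimate the spread from, and that fit had little power to call any gene. Without the replicate number, leaving out Tamo replicate 2 gave Nlrp3 an edgeR adjusted p of 0.0863 and a log2 fold change of 3.74.

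Besides Esco1, Nlrp3 and Prr14, the leading genes had no call in edgeR. The 15 with the smallest p among named protein-coding genes with higher levels in Tamo_E2 had log2 fold changes of 0.30 to 2.77 (edgeR adjusted p from 0.0763 to 0.9998). Of these 15, 14 had groups that did not overlap, against 3.37% of all genes, a share that the choice by p brings with it. They included Nlrp3, Esco1 and Galnt10. Esf1, a nucleolar factor of ribosomal RNA processing, stood at 26.1, 25.9 and 27.5 FPKM in Tamo_E2, against 22.2, 18.9 and 19.6 FPKM in Tamo (0.39 ± 0.09, edgeR adjusted p = 0.9998, and 0.0712 with the replicate number). Tfb2m, a transcription factor of mitochondrial DNA, stood at 15.4, 14.0 and 13.8 FPKM in Tamo_E2 and at 12.7, 9.64 and 9.08 FPKM in Tamo (0.46 ± 0.11). Hccs, which attaches heme to cytochrome c, stood at 9.69, 13.1 and 12.7 FPKM in Tamo_E2 and at 8.92, 5.52 and 4.78 FPKM in Tamo (0.89 ± 0.22). Its replicate 1 pair differed by only 0.11 on the log2 scale, against 1.28 and 1.39 in the other pairs.

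Caap1, an inhibitor of caspase activation, stood at 4.90, 5.26 and 4.45 FPKM in Tamo_E2, above all Tamo libraries at 3.85, 3.09 and 3.55 FPKM (0.48 ± 0.11, DESeq2 adjusted p = 0.0391). Smarca5, the ATPase of ISWI chromatin remodelers, stood at 12.9, 14.9 and 15.1 FPKM in Tamo_E2 and at 12.2, 11.6 and 11.2 FPKM in Tamo (0.30 ± 0.08). Xbp1, a transcription factor of the unfolded protein response and an estrogen target in breast cancer cells, stood at 41.2, 36.5 and 40.8 FPKM in Tamo_E2 and at 31.3, 26.0 and 33.6 FPKM in Tamo (0.38 ± 0.11). The groups did not overlap for any of these 3 genes. Thoc7, of the THO complex of mRNA export, was the 1 of the 15 with overlapping groups, at 12.3, 8.49 and 4.71 FPKM in Tamo_E2 and 4.72, 3.20 and 4.66 FPKM in Tamo (1.01 ± 0.25). The others were Tmed5, a p24 cargo receptor of the secretory pathway, Fbxo11, a substrate receptor of an SCF ubiquitin ligase, Chordc1, an HSP90 co-chaperone, Orc4, of the origin recognition complex, and Srp54b, of the signal recognition particle. Srp54b has near-identical neighbours, and its counts are uncertain.

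The 15 leading genes with lower levels in Tamo_E2 had log2 fold changes of -1.12 to -0.22 (edgeR adjusted p from 0.908 to 0.9998), and 14 of them had groups that did not overlap, against 2.95% of all genes. Sec22c, a vesicle traffic protein of the endoplasmic reticulum, stood at 0.952, 1.07 and 1.16 FPKM in Tamo_E2, against 2.19, 2.43 and 2.30 FPKM in Tamo (-1.12 ± 0.31). Tpp1, a lysosomal tripeptidyl peptidase, stood at 10.1, 8.82 and 9.18 FPKM in Tamo_E2, below all Tamo libraries at 17.7, 14.7 and 15.4 FPKM (-0.77 ± 0.23). Adgrl1, the adhesion receptor latrophilin, stood at 4.07, 4.08 and 4.72 FPKM in Tamo_E2 and at 9.98, 9.67 and 5.15 FPKM in Tamo, so that the distance rested on Tamo replicates 1 and 2 (-0.94 ± 0.28). Usp30, a deubiquitinase of the outer mitochondrial membrane, stood at 4.43, 4.77 and 4.59 FPKM in Tamo_E2 and at 5.79, 6.09 and 5.92 FPKM in Tamo, tight in both groups (-0.37 ± 0.10). Ndufs8, of respiratory complex I, stood at 50.6, 50.4 and 49.9 FPKM in Tamo_E2 and at 64.7, 56.0 and 79.1 FPKM in Tamo (-0.41 ± 0.13). Also in the 15 were Tctn1, of the ciliary transition zone, Emc8, of the endoplasmic reticulum membrane complex, Fkbp8, which anchors BCL2 at mitochondria, Rnf41, a ubiquitin ligase of ERBB3, Ap2a2, of the AP-2 clathrin adaptor, and Bex3, Sh2d5, Dexi and Fam160b2. Prr14, described above, completed the list.

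Larger fold changes were mostly in weakly expressed genes. A fold change beyond 2-fold was fitted for 225 genes (1.85%), whose median level was 0.966 FPKM against 6.66 FPKM for all genes tested, and 64 of the 225 (28.4%) had groups that did not overlap, against 6.33% of all genes, a share that the choice by fold change raises. Lrrc47, a leucine-rich repeat gene, was an exception in its level, at 29.6, 31.5 and 32.3 FPKM in Tamo_E2 against 8.50, 11.9 and 11.3 FPKM in Tamo (1.56 ± 0.51, edgeR adjusted p = 0.9998). The 24 libraries fell in separate levels of this gene, 11 at 8.50 to 13.6 FPKM and 13 at 28.9 to 36.9 FPKM, and other groups without and with estradiol had libraries at both. In NC the values were 29.6, 11.9 and 10.9 FPKM, and in ICI_E2 29.6, 32.4 and 10.5 FPKM. Golph3l, a phosphoinositide-binding protein of the Golgi, stood at 4.19, 2.26 and 2.10 FPKM in Tamo_E2, against 10.2, 9.45 and 6.38 FPKM in Tamo (-1.60 ± 0.57, edgeR adjusted p = 0.9998). Single libraries elsewhere were as low, with 2.86 FPKM in NC replicate 2 and 2.96 FPKM in ICI_E2 replicate 3. Mgat1, which starts the branching of N-glycans, was at 1.36, 1.32 and 1.43 FPKM in Tamo_E2 and at 7.26, 1.89 and 1.84 FPKM in Tamo, so that its log2 fold change of -1.41 was -0.44 without Tamo replicate 1. Zbtb42, Gbp11 and Evi2, with log2 fold changes of 2.20, 2.15 and 1.89, and Afmid, with -1.27, all averaged under 2.5 FPKM in both groups. Gbp11 belongs to a family of similar genes, and its counts are uncertain.

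**Figure D2:**
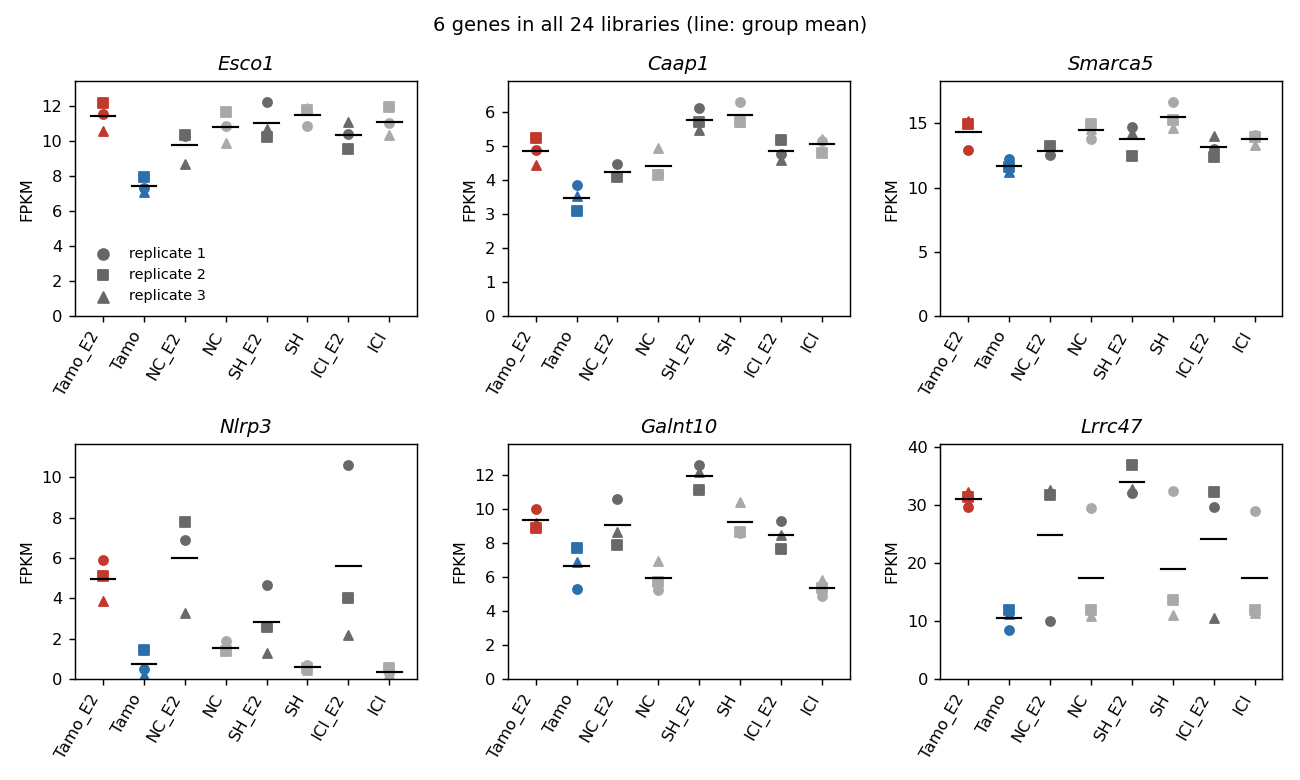
FPKM (y axis, from 0) of 6 genes in all 24 libraries, 3 per group, with Tamo_E2 in red, Tamo in blue, the other groups with estradiol in dark grey and those without in light grey (black lines are group means). Esco1, Caap1 and Smarca5 are lowest in Tamo, Nlrp3 and Galnt10 are higher with estradiol in each arm, and Lrrc47 falls in separate levels.

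Both groups were then placed beside the 6 groups of the other arms. Of the 15 leading genes with higher levels in Tamo_E2, the mean of Tamo_E2 lay outside the range of the means of NC_E2, NC, SH_E2, SH, ICI_E2 and ICI for 7, and the mean of Tamo for 10. Tfb2m, for example, averaged 14.4 FPKM in Tamo_E2, 10.5 FPKM in Tamo and 12.9 to 15.7 FPKM in the other 6 groups. Hccs averaged 11.8 FPKM in Tamo_E2 and 6.41 FPKM in Tamo, with 9.70 to 11.1 FPKM in the others. Of the 15 with lower levels, Tamo_E2 lay outside for 10 and Tamo for 8. Over all genes tested Tamo_E2 lay outside for 30.3% and Tamo for 36.2%, and the choice by p raises such counts among the leading genes. Over all 237 genes with higher levels at an unadjusted p under 0.05, Tamo was farther than Tamo_E2 from the mean of the other 6 groups for 162, or 68.4%, against 53.7% of all genes tested. Their median distance from the other groups was 0.15 in Tamo_E2 and -0.27 in Tamo on the log2 scale. Among the 197 genes with lower levels Tamo was the farther for 98, or 49.7%, against the same 53.7%, with median distances of -0.24 in Tamo_E2 and 0.24 in Tamo. These shares are descriptions and were not tested.

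The estradiol effect under tamoxifen was then set against that in each other arm, where no libraries are shared with it. Of the 237 genes with higher levels in Tamo_E2 at an unadjusted p under 0.05, 61 had a positive estradiol effect in NC (25.7%, against 49.8% of all genes), 91 in SH (38.4%, against 49.1%) and 113 in ICI (47.7%, against 49.2%). Of the 197 with lower levels, 69 had a negative effect in NC (35.0%, against 50.2% of all genes), 94 in SH (47.7%, against 50.9%) and 87 in ICI (44.2%, against 50.8%). The medians over the 237 genes were 0.38 under tamoxifen, -0.09 in NC, -0.03 in SH and -0.01 in ICI. Tests of the difference called 0 of 12183 genes (0%) against NC, SH, ICI and the mean of the 3 arms (edgeR with Benjamini-Hochberg adjustment), where DESeq2 called 16, 4, 3 and 10 and limma 0. At an unadjusted p under 0.05 they held 495 (4.06%), 305 (2.5%), 332 (2.73%) and 568 (4.66%) genes. These tests share the tamoxifen libraries and are not independent of each other.

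Esco1 had the smallest p of the difference against the mean of the 3 arms, at 0.71 ± 0.12 (edgeR adjusted p = 0.0719), and passed with the replicate number in the fit (0.71, edgeR adjusted p = 0.0215). Its estradiol effect was 0.62 under tamoxifen, -0.15 in NC, -0.06 in SH and -0.09 in ICI. With the replicate number 2 other genes passed in this test (0.0246%), named here after their values were seen. Dr1, a repressor of TATA-dependent transcription, stood at 33.0, 39.8 and 43.6 FPKM in Tamo_E2 and at 28.6, 31.4 and 33.3 FPKM in Tamo, with overlapping groups but the higher value with estradiol in each pair (difference 0.45, edgeR adjusted p = 0.0215). Gm5805, a predicted gene, had 41.6, 26.8 and 39.0 FPKM in Tamo_E2 and 56.5, 49.7 and 60.8 FPKM in Tamo, while its levels were higher with estradiol in the other arms (difference -1.34, edgeR adjusted p = 0.0450). Without estradiol Gm5805 held 26.6 to 31.1 FPKM in NC, 33.2 to 41.1 in SH and 18.8 to 31.8 in ICI, all below the Tamo libraries. In NC_E2 it held 47.5 to 58.4 FPKM. Without the replicate number the adjusted p was 0.999 for Dr1 and 0.324 for Gm5805 (edgeR). Next by p among named protein-coding genes after Esco1 in that fit came Tmed5 (0.59 ± 0.12, edgeR adjusted p = 0.389), Smarca5 (0.43 ± 0.10, edgeR adjusted p = 0.733), Tmem33 (0.51 ± 0.12, edgeR adjusted p = 0.733) and Esf1 (0.43 ± 0.11, edgeR adjusted p = 0.733). Against single arms the smallest p values among named protein-coding genes belonged to Esco1, Ccdc71, Tmed5, Sema3d and Tmem33 (NC), Esco1, Arl16, Zfp260, Tmed5 and Smarca5 (SH), and Esco1, Eif1a, Psenen, Colgalt1 and Zbtb42 (ICI), none with an adjusted p under 0.323 in edgeR.

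**Figure D3:**
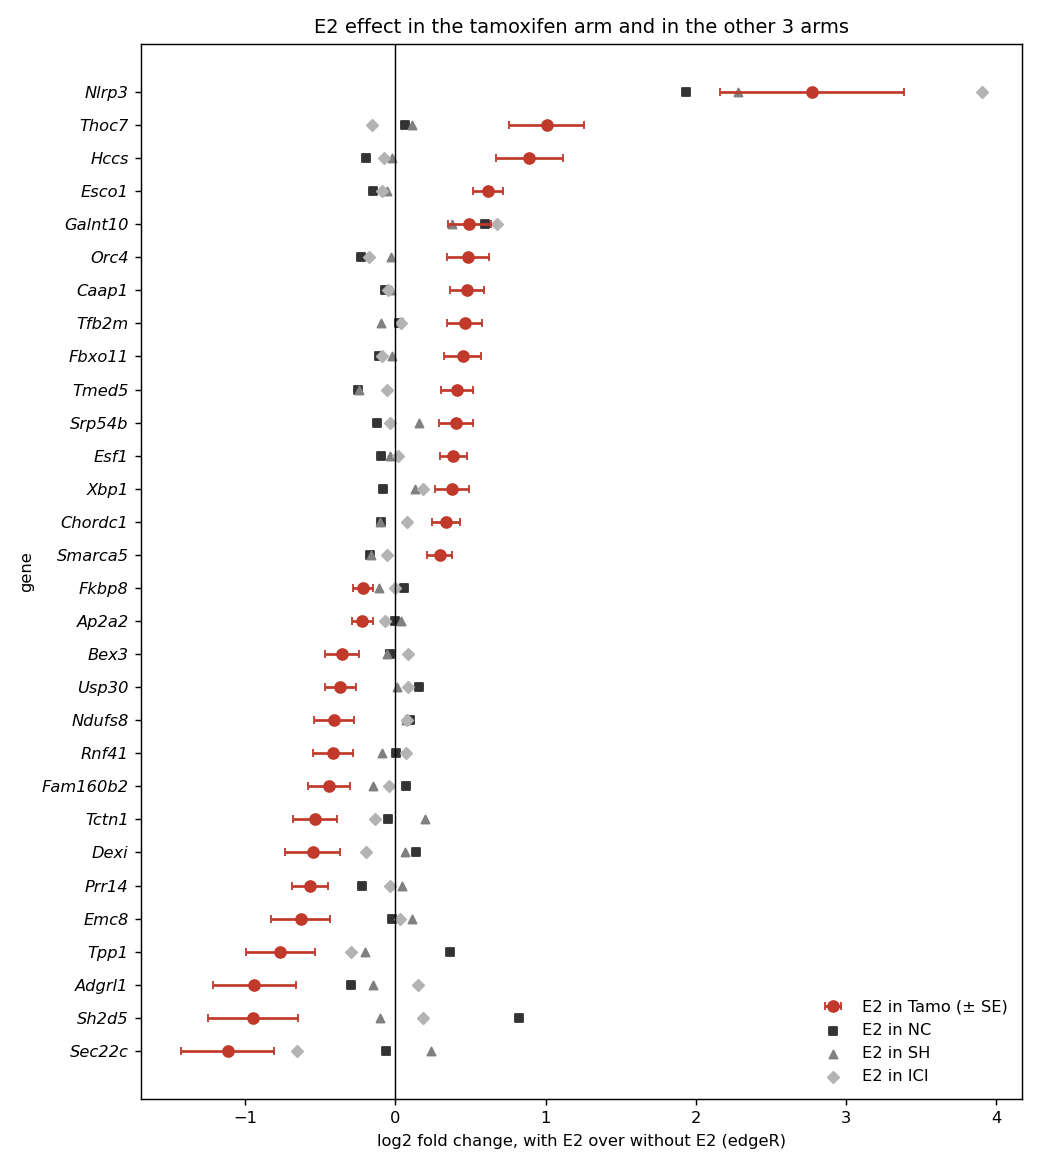
Log2 fold change with over without estradiol (x axis, edgeR) for the 15 leading genes with higher and the 15 with lower levels in Tamo_E2, in the tamoxifen arm (red, ± SE), NC (squares), SH (triangles) and ICI (diamonds). Nlrp3 and Galnt10 are positive in all 4 arms, whereas for Esco1 and Orc4 the other 3 arms lie at or below 0.

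No gene of estrogen signalling passed the test. Esr1, estrogen receptor alpha, stood at 0.374, 0.360 and 0.269 FPKM in Tamo_E2, against 0.408, 0.360 and 0.219 FPKM in Tamo, below the level required for testing. With all 28735 genes kept its log2 fold change was 0.03 ± 0.35 (edgeR adjusted p = 1). Esr2, estrogen receptor beta, had 0 counts in all 6 libraries. Gper1 had 0, 0 and 8 counts in Tamo_E2 and 0, 3 and 0 counts in Tamo, and the estrogen target Pgr had at most 4. Of 24 tested estrogen response genes, 2 had higher levels at an unadjusted p under 0.05, Xbp1 and the DNA end resection factor Rbbp8 (0.21 ± 0.10), and 1 had lower levels, the melanosome transport gene Mreg (-0.91 ± 0.35), against 1.95% and 1.62% of all genes. None passed, and the median was 0.04 against -0.01 over all genes. Greb1, an estrogen receptor cofactor and target in breast cells, stood at 3.32, 3.83 and 2.04 FPKM in Tamo_E2 and at 4.46, 4.02 and 2.80 FPKM in Tamo, lower in each pair but with overlapping groups (-0.29 ± 0.30, edgeR adjusted p = 0.9998). Of 29 tested receptor coregulators 0 reached an unadjusted p under 0.05, against 3.56% of all genes. With the replicate number 1 had higher and 1 lower levels at that threshold, against 4.91% and 3.9% of all genes. Among 8 nuclear receptor genes tested, Rxrb, a retinoid X receptor, was below all Tamo libraries, at 10.2, 9.78 and 9.57 FPKM in Tamo_E2 and 11.4, 13.1 and 11.8 FPKM in Tamo (-0.30 ± 0.14, edgeR adjusted p = 0.9998).

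Sterol genes were examined because tamoxifen binds enzymes of their pathway. Of 10 tested genes of that site and the late sterol steps and of 22 genes of cholesterol synthesis and uptake, 0 reached an unadjusted p under 0.05, with medians of -0.06 and 0.00. The share over all genes was 3.56%, and lists this small cannot show a lack of such genes. Ebp, sterol isomerase and part of the binding site, stood at 11.7, 12.8 and 13.1 FPKM in Tamo_E2 and at 11.9, 11.0 and 15.6 FPKM in Tamo (-0.04 ± 0.18, edgeR adjusted p = 0.9998). Hmgcs1, which makes HMG-CoA, stood at 36.7, 75.5 and 68.4 FPKM in Tamo_E2 and at 33.7, 62.3 and 62.7 FPKM in Tamo. Its replicate 1 libraries were low in both groups, and the groups overlapped (0.19 ± 0.45, edgeR adjusted p = 0.9998). Nor was a mast cell gene called: of 17 protease and granule genes, 21 receptor and signalling genes and 16 transcription factors tested, 0 reached an unadjusted p under 0.05 without the replicate number, against the same 3.56%. With the replicate number 1, 2 and 1 genes of these lists had higher levels at that threshold, and 0, 0 and 1 lower. The shares over all genes in that fit were 4.91% and 3.9%. Cpa3, mast cell carboxypeptidase, stood at 311, 205 and 190 FPKM in Tamo_E2 and at 299, 134 and 198 FPKM in Tamo (0.16 ± 0.27, edgeR adjusted p = 0.9998).

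In edgeR, all 40 gene lists examined had 0 members called without the replicate number, and with it only Nlrp3 and Esco1, each in its own list, which DESeq2 called without it. List medians ran from -0.11 for nuclear receptors to 0.15 for mitochondrially encoded genes. The mitochondrial median was 0.03 without Tamo replicate 2, 0.08 without Tamo replicate 3 and 0.07 without Tamo_E2 replicate 2, and the medians of pairs 1, 2 and 3 were -0.12, 0.31 and 0.11. Of 50 ribosome biogenesis genes, 3 had higher levels at an unadjusted p under 0.05 (Esf1, Ddx10 and Noc3l) and 0 lower. The shares over all genes were 1.95% and 1.62%. The median of the 50 was 0.04, and it ran from -0.0055 to 0.15 over the fits that each left out 1 library. In 7 of the 50 all Tamo_E2 libraries were above all Tamo libraries, or 14.0%, against 3.37% of all genes, and in 0 of them below. Ddx10, an RNA helicase of the nucleolus, stood at 28.6, 33.4 and 30.8 FPKM in Tamo_E2 and at 25.1, 27.6 and 25.8 FPKM in Tamo (0.24 ± 0.11, edgeR adjusted p = 0.9998). With the replicate number 9 of the 50 had higher levels at an unadjusted p under 0.05 and 1 lower, against 4.91% and 3.9% of all genes. Of 82 nuclear genes of oxidative phosphorylation 0 had higher and 5 lower levels at an unadjusted p under 0.05, against 1.95% and 1.62% of all genes, among them Ndufs8, Ndufs7 (-0.28 ± 0.11) and Atp5g1 (-0.28 ± 0.11). The list's median was -0.06, and it ran from -0.21 to 0.05 over the fits that each left out 1 library. In 2 of the 82 all Tamo_E2 libraries were below all Tamo libraries and in 1 above, against 2.95% and 3.37% of all genes. Of the 13 mitochondrially encoded genes, 11 had a positive fold change, with none at an unadjusted p under 0.05. With the replicate number 2 of the 13 had higher levels at that threshold and 0 lower. Tap2, a subunit of the peptide transporter of antigen presentation, stood at 35.4, 29.6 and 31.3 FPKM in Tamo_E2, above all Tamo libraries at 23.6, 21.2 and 25.2 FPKM (0.46 ± 0.15, edgeR adjusted p = 0.9998, and 0.153 with the replicate number). Of 16 antigen presentation genes tested, 1 was higher and 1 lower at an unadjusted p under 0.05. Only 6 of the 16 had a positive fold change, and their median was -0.08. Cdkn1b, the cell cycle inhibitor p27, stood at 10.2, 8.21 and 7.36 FPKM in Tamo_E2, above all Tamo libraries at 6.15, 6.28 and 6.42 FPKM (0.45 ± 0.17, edgeR adjusted p = 0.9998). Of 22 genes of G1 cell cycle control tested, 9 had a positive fold change, with a median of -0.03.

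Abundant genes differed in opposite directions between the pairs of same-numbered libraries. Cytosolic ribosomal protein genes had median log2 differences of -0.08, 0.30 and -0.31 in pairs 1, 2 and 3, and oxidative phosphorylation genes -0.07, 0.17 and -0.27. Relative to the other 6 groups, ribosomal protein genes stood at 0.11, -0.16 and -0.09 in Tamo_E2 and at 0.18, -0.46 and 0.23 in Tamo (median log2). Tamo replicate 2 was thus low and the other Tamo libraries high, while the Tamo_E2 libraries lay between them. Without Tamo replicate 2 the median of the ribosomal protein genes was -0.24, and over the 6 fits that each left out 1 library it ran from -0.24 to 0.06. Across the 7059 genes with a mean of 5 FPKM or more, the differences of pairs 1 and 2 correlated at r = 0.09 (Spearman's rho 0.06), those of pairs 1 and 3 at 0.09 (rho 0.25) and those of pairs 2 and 3 at -0.07 (rho -0.17). These are descriptions across genes, which are not independent replicates.

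The replicate number showed in other genes. Mitosis genes stood at -0.81, 0.09 and 0.38 in Tamo_E2 replicates 1, 2 and 3 and at -0.70, -0.10 and 0.37 in Tamo (median log2 relative to the other 6 groups, 35 genes), so replicate 1 was low in both groups. Cytokine genes stood at -0.03, 0.87 and 0.25 in Tamo_E2 and at 0.03, 0.74 and 0.35 in Tamo (16 genes), with replicate 2 high in both. Interferon response genes had -0.34, 0.42 and 0.06 in Tamo_E2 and -0.18, 0.54 and -0.11 in Tamo (26 genes), again with replicate 2 highest. Between Tamo_E2 and Tamo the medians of these lists were 0.02, 0.00 and -0.02.

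**Figure D4:**
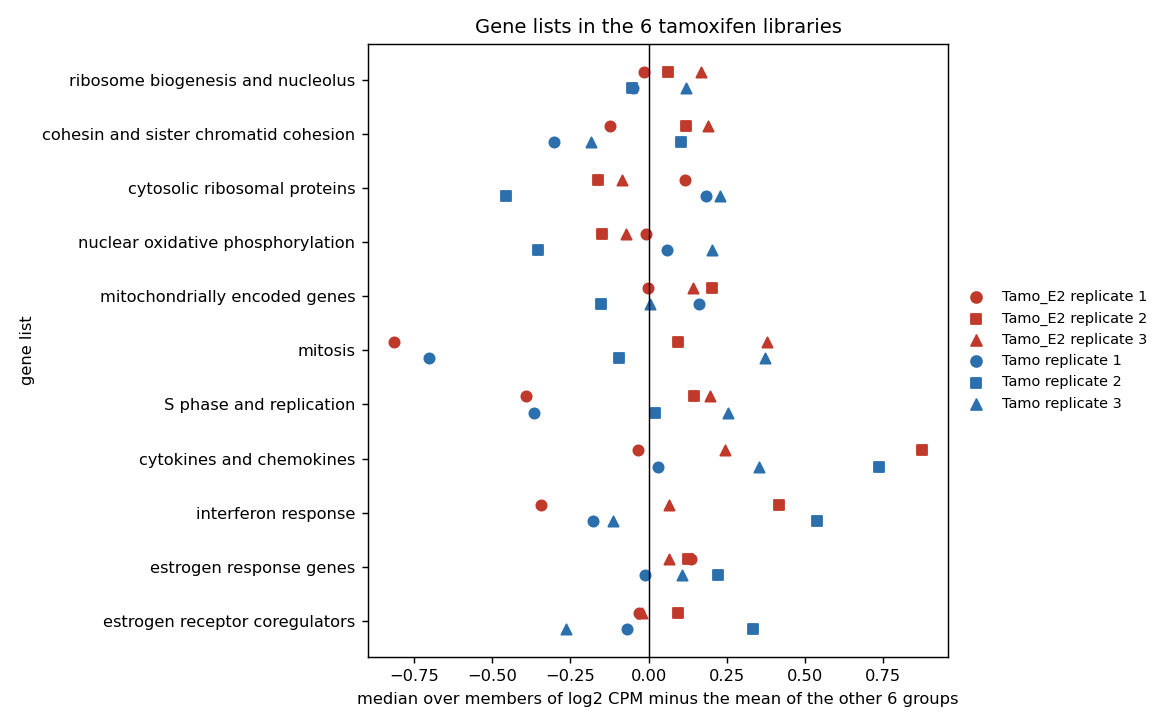
Median over the tested members of 11 gene lists (y axis) of log2 CPM minus the mean of the other 6 groups (x axis), for each Tamo_E2 library (red, upper row) and Tamo library (blue, lower row), with the replicate number as the symbol. Mitosis and cytokine genes separate by replicate number in both groups, and ribosomal protein genes are lowest in Tamo replicate 2.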

How the data were processed

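RNA of P815 cells was sequenced in 24 libraries, 3 for each of 8 groups. Per the submitters' processing notes, cutadapt and HISAT2 were used with the GRCm38 build. The sources used here do not give the quantifier, annotation or strand setting, so reads of genes that overlap or lie antisense cannot be assigned with certainty. The authors deposited FPKM and estimated counts for 55385 genes. The deposited estimated counts are whole numbers that pile up at multiples of 4 (16.2% of those from 1 to 40 equal 4), so their counting error is not that of single reads. An FPKM of 0.0001 stands for no signal.

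The estimated counts were tested with edgeR 4.0.16 (R 4.3.3, quasi-likelihood, TMM scaling, 1 coefficient per group over the 24 libraries, two-sided, Benjamini-Hochberg, threshold 0.05). Tests ran on the 12183 genes with 1 FPKM or more in at least 3 libraries, and the script was checked on simulated data. Alternatives were DESeq2 1.42.0, limma 3.58.1 on log2(FPKM + 1), other scaling and filters, left-out libraries and the replicate number as a block. Libraries of the same number in the 2 groups deviated together from their group means (r = 0.34, 0.18 and 0.26 for numbers 1, 2 and 3). Every other pairing was below 0, but taking deviations from group means pushes them there, so they add no support. Over all pairs of groups in the series, r of same-numbered libraries was over 0.1 in 77 of 84 comparisons. The pairing comes from the numbers in the labels, which do not state what they mark.

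Genes named are those called with or without the block, the 15 higher and 15 lower with the smallest p, the 5 largest fold changes each way among groups that do not overlap, 14 preset genes, up to 4 per list by p, and the 5 smallest p of each difference (by p or fold, named protein-coding genes only). The members, gene lists and sequences' genes were chosen with earlier results of these data known.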

Additional observations from a re-analysis of the deposited data

Results flagged for a closer look

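For 3 genes the estradiol effect under tamoxifen differed from the mean effect in the NC, SH and ICI arms when the replicate number was in the fit. For Esco1 the log2 difference was 0.71 (edgeR adjusted p = 0.0215), and 0.71 without the replicate number (edgeR adjusted p = 0.0719). For Dr1 it was 0.45 (edgeR adjusted p = 0.0215), and 0.45 without the replicate number (edgeR adjusted p = 0.999). For Gm5805 it was -1.34 (edgeR adjusted p = 0.0450), and -1.32 without the replicate number (edgeR adjusted p = 0.324).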

How the results depend on the processing

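With the replicate number as a block the estradiol effect under tamoxifen had 3 calls and its difference from the mean of the 3 other arms 3, against 0 without it, and the differences from NC, SH and ICI had 0. It changed no other call. The cause was not tested. DESeq2 called 6 genes for the estradiol effect under tamoxifen, 16 for the difference from NC, 4 from SH, 3 from ICI and 10 from the mean of the arms. With only the libraries of a contrast in the fit, the differences from NC and from ICI had 1 call each, Nek7 and Eif1a. The block without Tamo replicate 2, an alternative chosen after seeing the data, had 4 calls: Esco1, Nlrp3, Phtf1os and Gm9824. Leaving out 1 library at a time gave 0 to 1 calls under tamoxifen (Cbx1 without Tamo replicate 3), 0 to 1 against NC (Gm5597 without NC replicate 2, Ccdc71 without NC_E2 replicate 2, Larp4 without NC_E2 replicate 3), 0 to 1 against SH (Zfp260 without SH_E2 replicate 1) and 0 to 0 against ICI and against the mean. limma, other size factors, no filter on low values and counts divided by 4 gave 0 calls in all 5 comparisons. Of 720 values of 45 named genes under alternatives, 9 changed the call and 4 genes changed sign, and 66 of 320 list medians moved by more than 1 SD of the 3 pairs.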
